A study of Mus musculus with 18 samples.

Results

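The genes described here are 32 markers of cerebellar astrocytes and of Bergmann glia, the radial astrocytes whose processes wrap Purkinje cell dendrites. They were chosen by gene symbol from the 22783 genes of an expression table: 20 that such cells carry in healthy tissue and 12 that rise when astrocytes become reactive, the state they enter around injured or dying neurons. All 32 symbols were found. The list was chosen with earlier results of these data known. The RNA came from whole dissected cerebella of FVB mice in 6 groups of 3 libraries each, 18 in all. The groups were Cck-/- mice and ATXN1[30Q]D776/Cck-/- mice, each at postnatal weeks 5, 12 and 28. Both genotypes lack cholecystokinin by label, so by label every comparison between them was made on the Cck-/- background. No group labelled as having an intact Cck gene entered. ATXN1[30Q]D776 is a human ataxin-1 transgene with a short glutamine tract and an aspartate in place of a regulatory serine. Transgenes of this name are known for expression in Purkinje cells from the Pcp2 promoter, which the labels used here do not state. No label ties a library to an animal of its own, so p-values measure the spread between libraries, part of which may be technical.

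Bergmann glia and other astrocytes take up synaptic glutamate through the transporters Slc1a3 and Slc1a2, turn it into glutamine with Glul, and buffer water and potassium through channels such as Aqp4 and gap junctions of Gja1 and Gjb6. Reactive astrocytes enlarge their intermediate filaments, Gfap and Vim, and add complement, protease inhibitors and cytokine receptors, much of it downstream of gp130 receptors and the transcription factor STAT3. Spinocerebellar ataxia type 1, the disease caused by expanded ataxin-1, is known for loss of Purkinje cells with reactive Bergmann glia around them.

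Values are FPKM, fragment counts scaled for transcript length and library size, so levels can be compared between genes. Differences are log2 fold changes of FPKM + 1, transgenic minus Cck-/-, from limma, and a gene is called when its Benjamini-Hochberg adjusted p over all 13487 genes tested is under 0.05. The added 1 makes the fold change of genes near 1 FPKM too small. In RNA from whole tissue, fewer cells of a type and less RNA per cell cannot be told apart. The libraries summed to 389248 to 441509 FPKM, and read depth was not given in the table. Bergmann glia and astrocyte markers, themselves members of the set, were present in all 18 libraries. Slc1a3 ranged from 180.2 to 435.8 FPKM, Gdf10 from 29.8 to 118.8 FPKM and Sox9 from 7.33 to 13.5 FPKM. Libraries of 1 group correlated at 0.984 to 0.996. Transgenic week 5 replicates 1 and 2 and week 28 replicate 3 stood apart by low choroid plexus genes, and 3 transgenic libraries (week 5 replicate 1, week 12 replicate 2 and week 28 replicate 1) held both Xist and the Y-linked Ddx3y. Every group mixed libraries high and low in Xist, but not equally. Xist averaged 22.5 and 34.6 FPKM in Cck-/- at weeks 5 and 12, against 53.6 and 55.4 FPKM in transgenic libraries. At week 28 it averaged 54.2 FPKM in Cck-/- and 70.1 FPKM in transgenic libraries. Sex is therefore partly mixed with genotype at weeks 5 and 12, and with age in Cck-/- from week 12 to week 28. In Cck-/- week 5, Xist ran from 0.432 to 66.3 FPKM and Ddx3y from 0.00513 to 28.6 FPKM. Libraries of a group were thus not all from the same animal. Cck-/- week 28 replicate 1 also stood apart from replicates 2 and 3 of its group, in mean log2 marker levels of 4.29 against 3.44 and 3.53 for meninges, 6.97 against 5.37 and 3.39 for blood, 3.84 against 3.41 and 3.28 for microglia, and 7.43 against 7.87 and 7.96 for granule neurons. Cck itself read 98.1 ± 15.6 FPKM (SD, n = 3) in the transgenic libraries at week 5 against 20.8 ± 4.51 FPKM in Cck-/-. It read 4.97 to 14.8 FPKM on average in the other 4 groups. At week 5 a transgene effect and this Cck level therefore cannot be told apart. The same limit holds for the interactions with week 5 and for the transgenic week 5 to 12 effect, which use these libraries.

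The members spanned the whole range of abundance. Apoe, the main lipid carrier that astrocytes secrete, averaged 1176 FPKM over all libraries and ranked ninth among the genes tested. Aldoc, a glycolytic aldolase, followed at 1096 FPKM, and Sparcl1, a secreted synapse-modifying protein, at 771 FPKM. S100b, a calcium-binding protein, averaged 397 FPKM and Slc1a3 341 FPKM. The reactive genes lay lower, apart from Vim at 137 FPKM and Gfap at 125 FPKM. Of the 12 reactive genes, 4 did not reach 1 FPKM in 3 libraries and were not tested: the cytokine receptor Osmr (0.556 to 1.16 FPKM), the chemokine Cxcl10 (0.112 to 1.76), the iron-carrier binding protein Lcn2 (0.0730 to 0.712) and the metalloreductase Steap4 (0.0929 to 0.432). That left 28 tested members, 20 astrocyte and 8 reactive genes.

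Promoters of the members whose level moved most at week 28 are shown, the 2 largest changes in each direction among the called members with a RefSeq window (GRCm38.p6). They are the 250 bases before the annotated start, 5′ to 3′ on the gene's strand. Capitals mark letters that match the core of the Notch effector RBPJ, TGGGAA, or of STAT factors, TTCNNNGAA, on either strand.
Gfap (chr11:102897201-102897450, minus strand): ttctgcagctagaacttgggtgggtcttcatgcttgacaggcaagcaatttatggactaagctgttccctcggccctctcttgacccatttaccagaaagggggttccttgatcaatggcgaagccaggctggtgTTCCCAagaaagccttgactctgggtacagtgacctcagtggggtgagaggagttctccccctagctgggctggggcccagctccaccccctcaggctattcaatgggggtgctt
Cd44 (chr2:102901666-102901915, minus strand): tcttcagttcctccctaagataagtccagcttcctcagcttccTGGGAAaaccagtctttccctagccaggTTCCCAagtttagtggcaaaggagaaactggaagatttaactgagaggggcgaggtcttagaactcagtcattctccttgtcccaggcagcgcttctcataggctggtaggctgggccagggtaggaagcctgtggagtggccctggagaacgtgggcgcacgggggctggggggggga
Slc1a3 (chr15:8710808-8711057, minus strand): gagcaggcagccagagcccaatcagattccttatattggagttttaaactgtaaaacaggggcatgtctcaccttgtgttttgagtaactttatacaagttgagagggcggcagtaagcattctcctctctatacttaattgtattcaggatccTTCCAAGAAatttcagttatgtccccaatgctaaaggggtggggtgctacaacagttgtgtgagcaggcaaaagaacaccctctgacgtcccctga
Gdf10 (chr14:33923337-33923586, plus strand): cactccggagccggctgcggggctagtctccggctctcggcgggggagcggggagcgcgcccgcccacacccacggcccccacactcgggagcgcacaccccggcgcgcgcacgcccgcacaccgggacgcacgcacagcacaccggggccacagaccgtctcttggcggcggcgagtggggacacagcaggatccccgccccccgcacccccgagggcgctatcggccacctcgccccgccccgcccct
Gfap held 1 RBPJ match, Cd44 held 2, Slc1a3 held 1 STAT match 96 bases before its start, and Gdf10 held none of the 4 motifs searched. RefSeq windows existed for 27 of the 32 members. The windows of Aqp4, Sox9, Clu, Sparcl1 and C4b were not used here. Some had more than 1, 32 windows in all. An RBPJ core was in 15 of the 32 windows, against 21.6% of 32851 promoter windows of the same length, and a STAT core in 5, against 7.02%. The AP-1 core TGANTCA was found in 2 of 32 (6.75% of all windows) and the SOX core CCATTGT in 0 (3.02%). A STAT and an RBPJ match can share letters. Counted by member and by change at week 28, the RBPJ core was in 2 of 6 higher, 2 of 5 lower and 9 of 12 uncalled members, and the STAT core in 0 of 6, 2 of 5 and 2 of 12. A match of letters describes the window and is no measured binding site.

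At week 28, the oldest age, the question was how the levels of these genes in whole cerebellum differed between the genotypes. Of the tested members, 14 of 28 were called, in both directions. The 5 called reactive genes, Gfap, Vim, C4b, Cd44 and S1pr3, all rose. The astrocyte genes split: Aqp4, Gja1, Apoe and Clu rose, and Slc1a3, Gdf10, Fabp7, Hopx and Aldoc fell. Of the 28 members, 9 were called higher, where 4.54% of all genes tested were called higher, and 5 were called lower, where 6.13% were. As the list was chosen with earlier results of these data known, these shares describe it and are no independent test. The median log2 fold change was 0.15 over the 20 astrocyte genes and 0.49 over the 8 reactive genes, against 0.0046 over all genes tested. In 15 of 28 members the 3 libraries of each genotype did not overlap, against 26.1% of all genes.

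**Figure D1:**
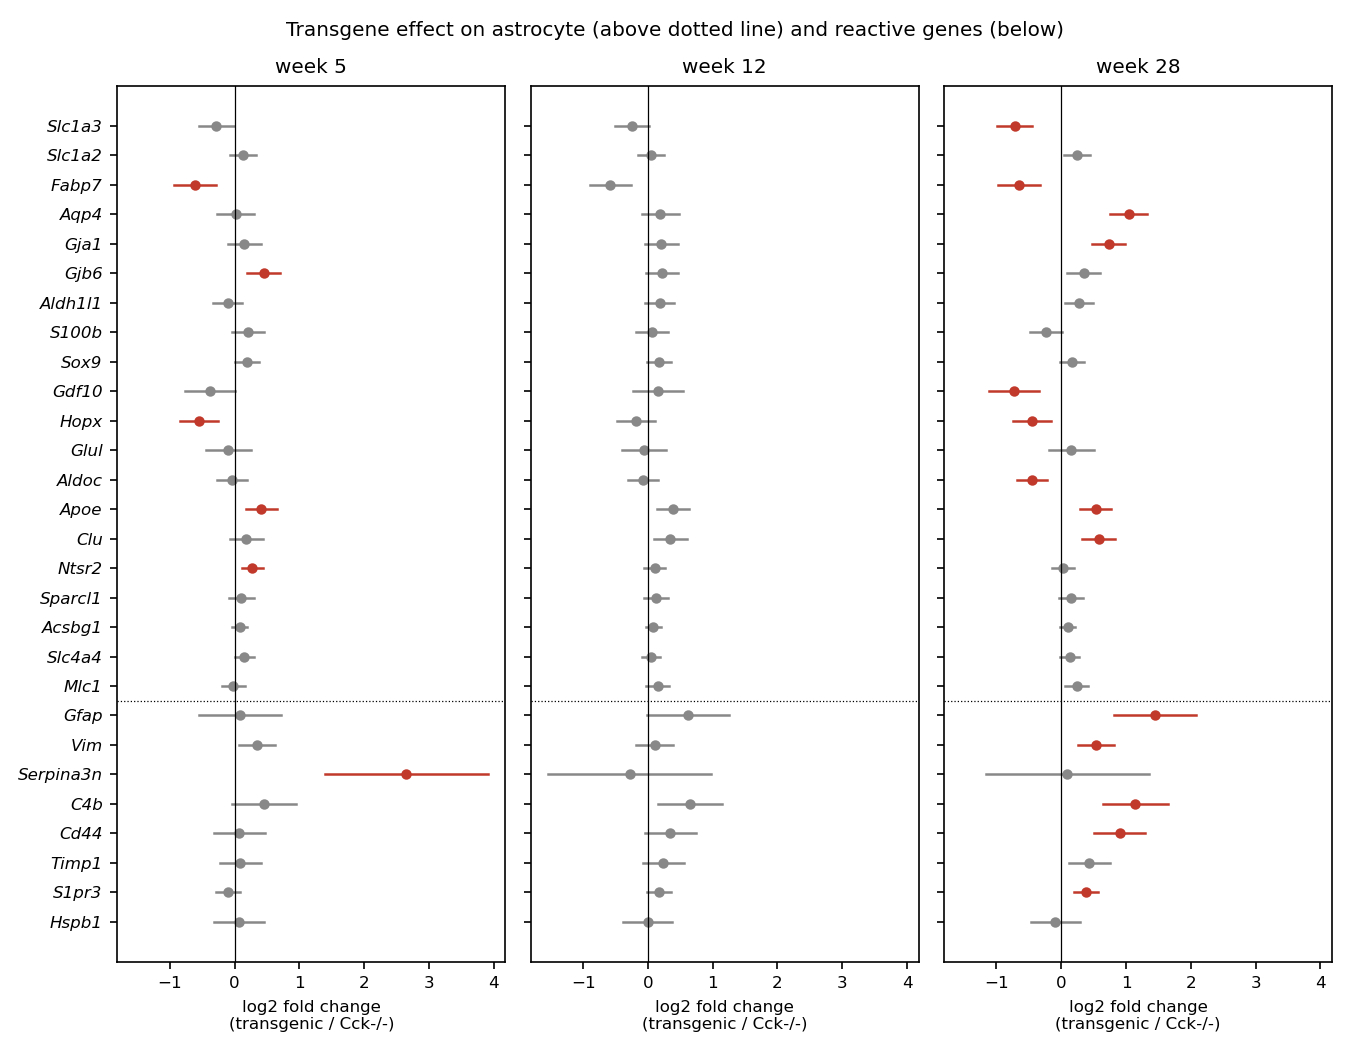
Log2 fold change of FPKM + 1, transgenic minus Cck-/-, for the 28 tested members at weeks 5, 12 and 28 (x axis, log2; lines are 95% intervals from limma, 3 libraries a group; red points are called at adjusted p under 0.05, grey points are not). Serpina3n stands out at 2.65 at week 5, and at week 28 Gfap, C4b and Aqp4 reach past 1 and Slc1a3 and Gdf10 lie at -0.72.

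Among the water, ion and gap junction genes, 2 of 5 rose at week 28. Aqp4, the water channel of astrocyte endfeet, read 235, 257 and 173 FPKM in transgenic replicates 1 to 3 against 125, 97.3 and 98.0 FPKM in Cck-/-. Every transgenic library was above every Cck-/- library, with replicate 3 the lowest of the transgenic ones. The log2 fold change was 1.04 (SE 0.13, adjusted p = 0.000120). Gja1, the connexin of astrocyte gap junctions, read 179, 195 and 141 FPKM against 122, 93.8 and 93.0 FPKM. Those groups did not overlap either, and the log2 fold change was 0.73 (SE 0.12, adjusted p = 0.000958). The second connexin, Gjb6, had 0.34 (adjusted p = 0.0768), the membrane protein Mlc1 had 0.24 (adjusted p = 0.0775) and the bicarbonate transporter Slc4a4 had 0.13 (adjusted p = 0.244), none of them called.

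Of the 3 glutamate genes, 1 was called. Slc1a3, the glutamate transporter that dominates in Bergmann glia, read 196, 180 and 275 FPKM in transgenic week 28 libraries against 375, 347 and 337 FPKM in Cck-/-. All 3 transgenic libraries were below all Cck-/- ones, and the log2 fold change was -0.72 (SE 0.12, adjusted p = 0.00145). Slc1a2, the transporter that dominates in forebrain astrocytes, read 123, 119 and 115 FPKM against 117, 97.9 and 87.8 FPKM. Its log2 fold change of 0.25 (95% interval 0.049 to 0.45, adjusted p = 0.107) was not called. Glul, glutamine synthetase, had 0.15 (adjusted p = 0.601). The ratio of Slc1a3 to Slc1a2 within a library was therefore 1.60, 1.51 and 2.38 in the transgenic libraries and 3.21, 3.54 and 3.84 in Cck-/-. The ratio averaged 1.83 ± 0.482 against 3.53 ± 0.314 (SD, n = 3 each; two-sided exact permutation p = 0.1, the smallest that 3 against 3 libraries allow). At week 5 it averaged 3.53 ± 0.451 against 4.66 ± 0.200 (exact permutation p = 0.1) and at week 12 3.39 ± 0.570 against 4.15 ± 0.612 (exact permutation p = 0.3).

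Of the 5 genes of lineage and Bergmann glia identity, 3 fell at week 28. Gdf10, a secreted TGF-beta family protein made by Bergmann glia, read 40.7, 29.8 and 61.8 FPKM in transgenic libraries against 75.3, 65.4 and 70.7 FPKM. Replicate 3 lay just under the lowest Cck-/- library and replicates 1 and 2 far below it. The log2 fold change was -0.72 (SE 0.18, adjusted p = 0.0190). Fabp7, a fatty acid binding protein of radial glia, read 48.5, 34.1 and 49.7 FPKM against 85.8, 64.2 and 59.8 FPKM, a log2 fold change of -0.66 (SE 0.15, adjusted p = 0.0116), with no overlap. Hopx, a homeodomain protein of Bergmann glia and astrocytes, read 129, 114 and 172 FPKM against 220, 170 and 175 FPKM. Here the groups overlapped, the log2 fold change was -0.45 (SE 0.14, adjusted p = 0.0477), and the call was lost in 23 of 34 alternative analyses. S100b (-0.23, adjusted p = 0.231) and the glial transcription factor Sox9 (0.17, adjusted p = 0.249) were not called.

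**Figure D2:**
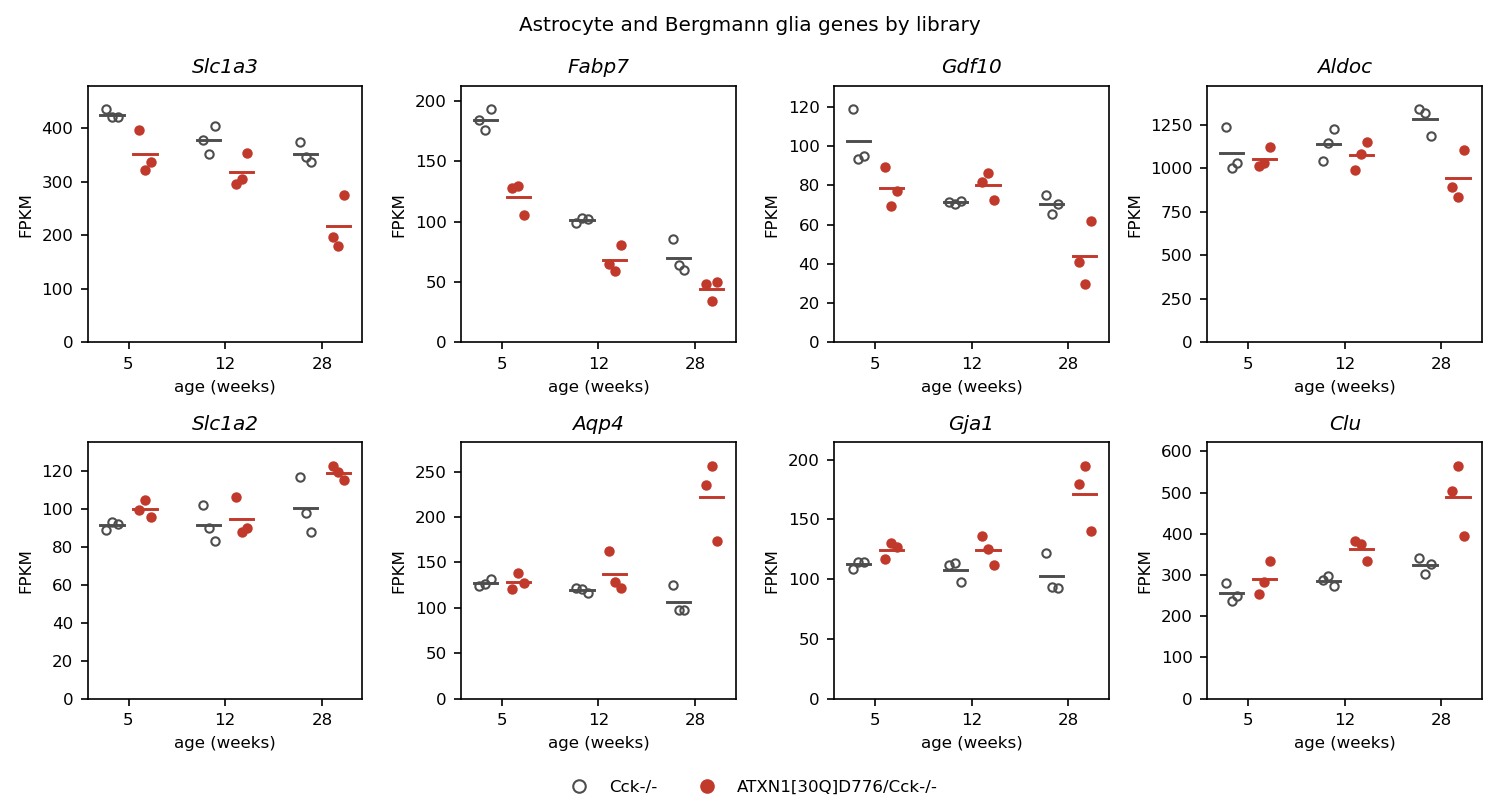
FPKM (y axis) of 8 astrocyte and Bergmann glia genes by age in weeks (x axis). Each point is 1 library, open for Cck-/- and filled for ATXN1[30Q]D776/Cck-/-, and bars are means of 3. At week 28 Slc1a3, Fabp7, Gdf10 and Aldoc sit below Cck-/- and Aqp4, Gja1 and Clu above it.

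Among the metabolic genes, Aldoc fell. It read 890, 832 and 1103 FPKM against 1337, 1318 and 1185 FPKM, with no overlap and a log2 fold change of -0.45 (SE 0.11, adjusted p = 0.0153). Aldoc is also zebrin II, made by many Purkinje cells, so its level in whole cerebellum has more than one source. Aldh1l1, a folate enzyme used as a general astrocyte marker, had 0.27 (adjusted p = 0.110) and the acyl-CoA synthetase Acsbg1 0.099 (adjusted p = 0.263). Among secreted proteins and receptors, Apoe rose, with 1541, 1713 and 1365 FPKM against 1196, 1034 and 968 FPKM. Its log2 fold change was 0.53 (SE 0.11, adjusted p = 0.00754). Clu, the chaperone-like apolipoprotein J, rose from 342, 303 and 327 FPKM to 505, 566 and 396 FPKM, by 0.58 on the log2 scale (SE 0.12, adjusted p = 0.00576). Neither Apoe nor Clu overlapped between the genotypes. Sparcl1 had 0.15 (adjusted p = 0.307) and the neurotensin receptor Ntsr2 had 0.028 (adjusted p = 0.858).

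Both reactive filament genes rose at week 28. Gfap read 277, 324 and 180 FPKM in transgenic libraries against 134, 83.1 and 69.5 FPKM in Cck-/-. Replicate 1 was the high library in Cck-/- and replicate 3 the low one in the transgenic group, and the groups did not overlap. The log2 fold change was 1.45 (SE 0.30, adjusted p = 0.00536). Vim read 181, 214 and 153 FPKM against 146, 113 and 115 FPKM, a log2 fold change of 0.54 (SE 0.13, adjusted p = 0.0167). C4b, the complement component, read 13.4, 20.3 and 12.1 FPKM against 8.64, 6.31 and 4.28 FPKM, a log2 fold change of 1.14 (SE 0.23, adjusted p = 0.00551). Its near copy C4a averaged 0.151 FPKM in transgenic week 28 libraries, and reads shared by the 2 copies could have been split between them.

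Both tested receptor and surface genes of the reactive list rose as well. Cd44, the hyaluronan receptor, read 8.58, 7.48 and 4.85 FPKM against 4.09, 2.56 and 3.01 FPKM, a log2 fold change of 0.90 (SE 0.19, adjusted p = 0.00569). S1pr3, a sphingosine 1-phosphate receptor, read 1.65, 1.82 and 1.27 FPKM against 1.09, 0.901 and 0.920 FPKM, close to the filter, a log2 fold change of 0.38 (SE 0.087, adjusted p = 0.0110). Timp1, an inhibitor of matrix proteases, read 1.77, 1.71 and 1.30 FPKM against 1.29, 0.666 and 0.836 FPKM and missed the threshold (0.44, adjusted p = 0.0775). Its locus in the table also spans the neuronal gene Syn1, at 73 to 80 FPKM on average, so its reads are uncertain. The chaperone Hspb1 had -0.089 (adjusted p = 0.798).

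**Figure D3:**
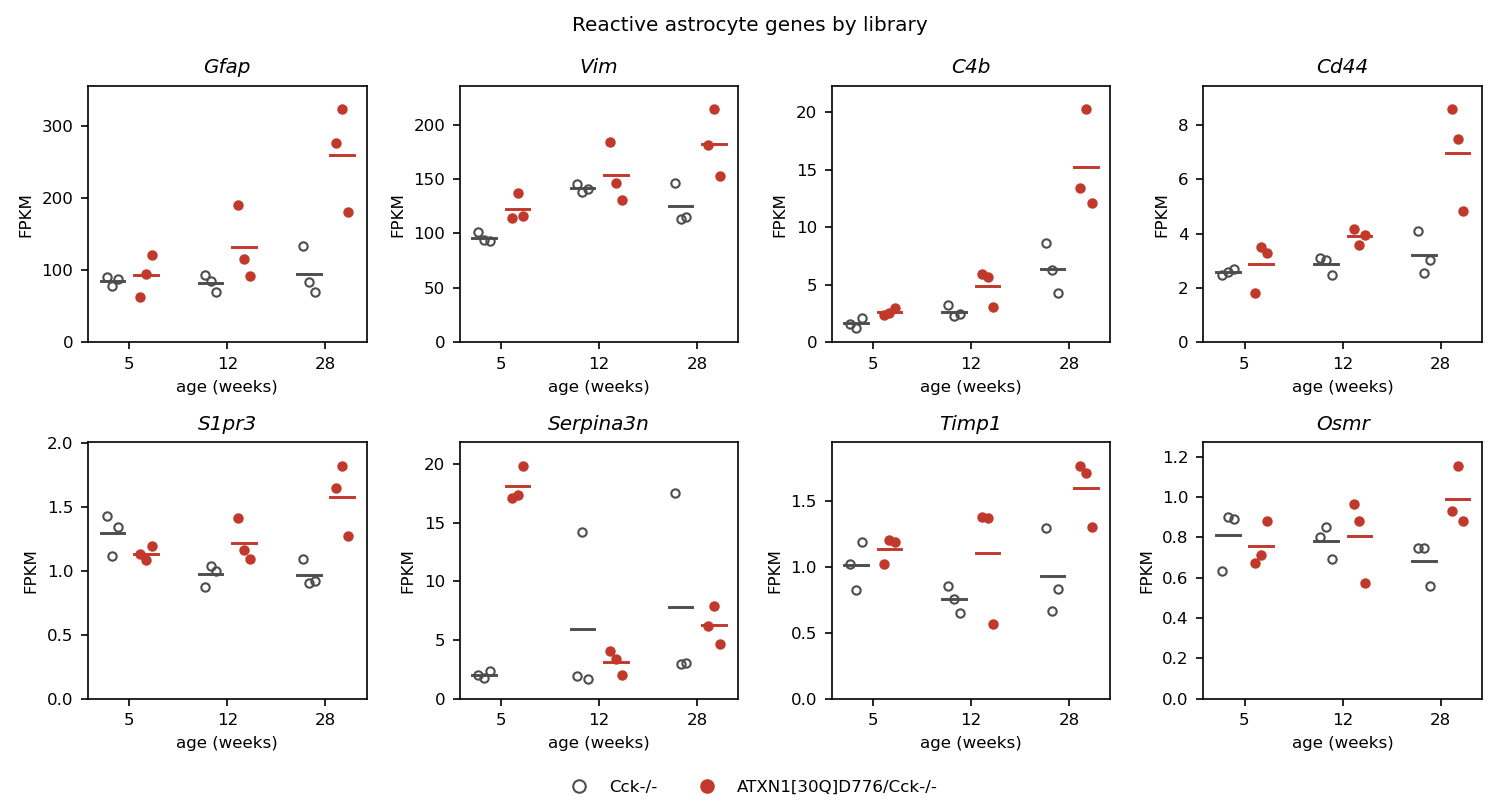
FPKM (y axis) of 8 reactive astrocyte genes by age in weeks (x axis), drawn as 1 point for each library with bars at the mean of 3, open for Cck-/- and filled for ATXN1[30Q]D776/Cck-/-. Gfap, C4b and Cd44 are higher at week 28 in the transgenic libraries, while Serpina3n is at 17.1 to 19.9 FPKM in the 3 transgenic libraries at week 5 and at 14.2 and 17.5 FPKM in 1 Cck-/- library at each later age.

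Serpina3n, a secreted protease inhibitor and common marker of reactive astrocytes, followed another course. At week 5 it read 17.1, 17.4 and 19.9 FPKM in transgenic libraries against 2.05, 1.72 and 2.39 FPKM in Cck-/-, a log2 fold change of 2.65 (SE 0.59, adjusted p = 0.0134). At week 12 it read 4.06, 3.39 and 1.99 FPKM against 1.96, 14.2 and 1.64 FPKM (-0.28, adjusted p = 0.919), and at week 28 6.22, 7.88 and 4.67 FPKM against 17.5, 2.96 and 3.07 FPKM (0.094, adjusted p = 0.946). Thus 1 Cck-/- library at each later age, at 14.2 and 17.5 FPKM, lay near the week 5 transgenic level. The other Serpina3 genes read, Serpina3g included, had group means up to 0.28 FPKM. The change of the effect from week 5 to week 12, -2.93, was not called (adjusted p = 0.144).

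The week 28 libraries were not alike in strength. Of the 14 called members, transgenic replicate 3 was nearest to the Cck-/- mean in 14 and replicate 2 farthest in 13. Over all 1439 genes called at week 28, replicate 3 was the nearest in 1104 (76.7%) and replicate 2 the farthest in 892. Replicate 3 is the library low in choroid plexus genes, and it also kept the most of its Purkinje cell markers. The mean log2 level of the 5 Purkinje markers was 6.89, 6.53 and 7.56 in transgenic replicates 1 to 3, against 8.46 to 8.54 in Cck-/-, and all 5 (Pcp2, Calb1, Car8, Itpr1 and Ppp1r17) were called lower.

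**Figure D4:**
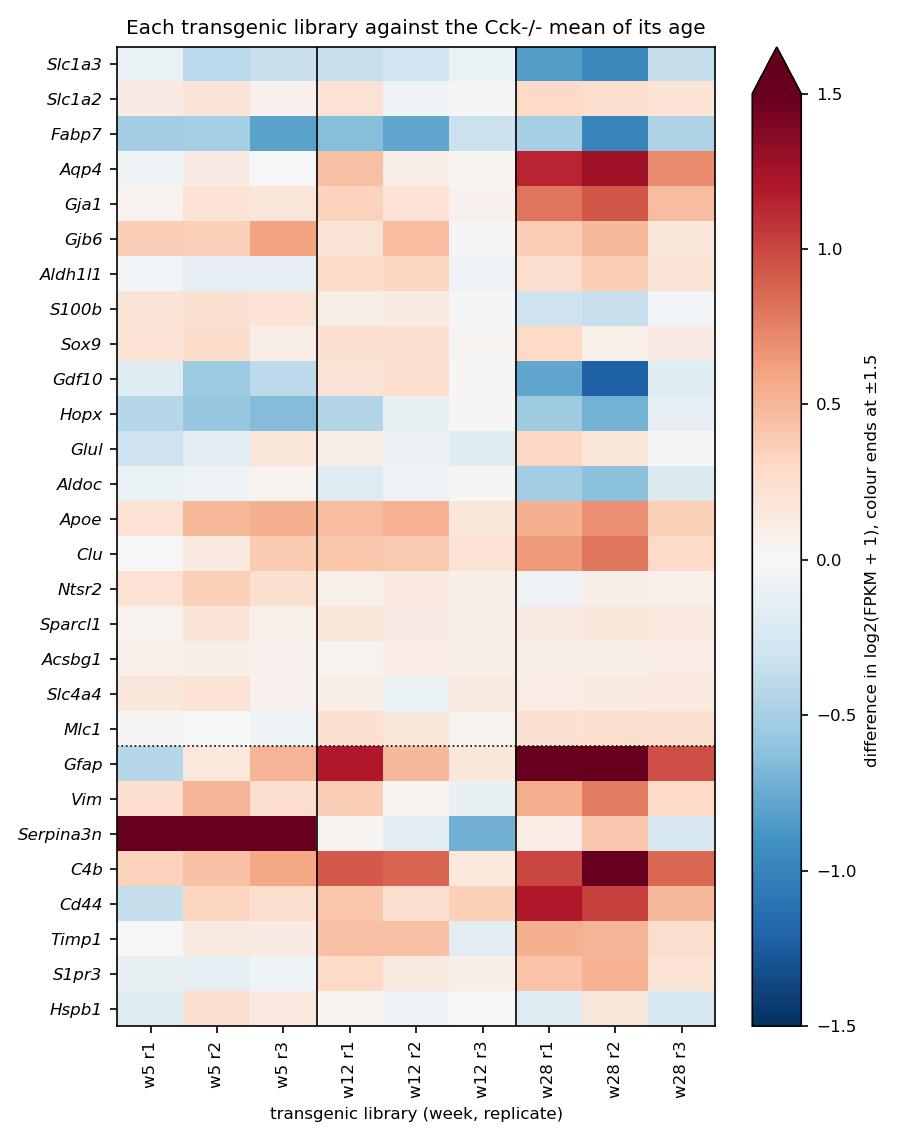
Difference of each transgenic library from the Cck-/- mean of its age, in log2(FPKM + 1), for the 28 tested members (rows) and the 9 transgenic libraries (columns, by week and replicate). Red is higher and blue is lower, and at week 28 the colours are strongest in replicate 2 and weakest in replicate 3.

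Markers of other cells were read in the same libraries. The 8 microglial markers averaged 3.80 to 4.35 (log2) in transgenic week 28 libraries and 3.28 to 3.84 in Cck-/-, with 3 of 8 called higher, and microglia also make Apoe, C4b and Cd44. Single markers were well above 0 in every library, such as C1qa at 11.4 to 50.9 FPKM and Tmem119 at 2.99 to 7.37 FPKM. The 7 markers of meninges and fibroblasts, cells that also make Vim and Cd44, averaged 3.74 to 4.13 against 3.44 to 4.29, with 0 of 7 called. The 7 choroid plexus markers averaged 4.57, 4.20 and 1.86 against 4.09 to 4.98. The 5 oligodendrocyte markers averaged 7.98 to 8.15 against 7.57 to 7.97, with 1 of 5 called higher. The part of these cells in the week 28 changes was not tested. With the meningeal level as a covariate, Hopx lost its call at week 28 (adjusted p = 0.0689), and the other called members kept theirs. Its log2 fold change went from -0.45 to -0.43, and its call was lost in 23 of 34 alternatives of many kinds.

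The week 28 calls rested in part on the estimate of spread shared over the 6 groups. Fitted on the 6 week 28 libraries alone, 1 member was called, Aqp4 (adjusted p = 0.0313), and the other 13 had adjusted p from 0.0598 (Gfap) to 0.212 (Hopx). Without transgenic replicate 2, 7 members were called, without replicate 1, 9, without Cck-/- replicate 1, 20, and without the 3 libraries with both Xist and Ddx3y, also 9. For these refits, and for those given below, the share of all genes called was not computed. Whether such counts moved with the calls over all genes is therefore not known.

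The week 5 comparison asked what differed at the youngest age, when 1 of 5 Purkinje markers was called lower. Of the 28 members, 6 were called. Of these, 4 were called higher, against 3.30% of all genes tested, and 2 were called lower, against 4.37%. The median log2 fold change was 0.087 over all tested members, against 0.0003 over all genes tested. Fabp7 read 127, 129 and 105 FPKM in transgenic libraries against 184, 176 and 193 FPKM, a log2 fold change of -0.61 (SE 0.15, adjusted p = 0.0229). Hopx read 158, 143 and 135 FPKM against 218, 202 and 217 FPKM, a log2 fold change of -0.55 (SE 0.14, adjusted p = 0.0246). In both genes every transgenic library was below every Cck-/- library.

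Gjb6, Apoe, Ntsr2 and Serpina3n were the higher ones. Gjb6 read 41.0, 40.6 and 48.2 FPKM against 31.97, 30.7 and 31.4 FPKM (0.45, SE 0.12, adjusted p = 0.0320). Apoe read 1049, 1281 and 1312 FPKM against 959, 865 and 897 FPKM (0.41, SE 0.11, adjusted p = 0.0371). Ntsr2 read 71.7, 79.2 and 73.2 FPKM against 67.9, 56.9 and 60.8 FPKM (0.27, SE 0.077, adjusted p = 0.0431). The Ntsr2 call was lost in 18 of 34 alternatives, with an adjusted p of up to 0.356. Slc1a3, Aqp4, Gja1 and Gfap, all called at week 28, had -0.28 (adjusted p = 0.196), 0.019 (0.959), 0.15 (0.516) and 0.083 (0.911) at week 5. Groups did not overlap in 14 of 28 members, against 31.2% of all genes. Oligodendrocyte markers were lower in the same transgenic libraries, at 8.52 ± 0.010 against 8.99 ± 0.13 (mean log2 of 5 markers, SD, n = 3), with 3 of 5 called. Purkinje markers were at 7.85 to 8.17 against 8.35 to 8.40, blood markers at 4.22 to 4.63 against 5.86 to 6.56 (0 of 5 called) and pericyte and smooth muscle markers at 2.34 to 2.36 against 2.54 to 2.68 (1 of 2 tested called lower). The part of these cells in the week 5 changes was not tested. Of the 3 transgenic libraries, replicates 1 and 2 are those low in choroid plexus genes, and without the 3 such libraries in the series 0 of 28 members were called, with 1 transgenic library left at week 5 that was assumed to vary like the other groups. The count was also 2 without Cck-/- replicate 1 or 2 or transgenic replicate 2, and 1 without Cck-/- or transgenic replicate 3.

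At week 12, 0 of 28 members were called by limma, and 4 had an unadjusted p under 0.05. Over all genes, 0.282% were called higher and 1.08% lower. Groups did not overlap in 11 of 28 members, against 16.7% of all genes. Fabp7 came closest, at 64.9, 58.8 and 81.0 FPKM in transgenic libraries against 98.6, 103 and 103 FPKM, a log2 fold change of -0.58 (SE 0.15, adjusted p = 0.0773). Gfap read 190, 116 and 92.4 FPKM against 93.4, 85.8 and 69.7 FPKM, with 1 transgenic library high and the others near the Cck-/- range (0.62, adjusted p = 0.428). Apoe had 0.39 (adjusted p = 0.122), C4b 0.65 (0.240) and Clu 0.34 (0.216).

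Whether the transgene effect differed between ages was tested as an interaction. From week 5 to week 28 it was called for 2 of 28 members, where 3.65% of all genes were called. The effect on Aqp4 grew by 1.02 (SE 0.19, adjusted p = 0.0127), from 0.019 to 1.04, and that on S1pr3 by 0.49 (SE 0.12, adjusted p = 0.0430), from -0.10 to 0.38. Gja1 (0.58, adjusted p = 0.0671), Gfap (1.37, adjusted p = 0.0853) and Cd44 (0.83, adjusted p = 0.0943) were not called, nor was Slc1a3 (-0.44, adjusted p = 0.176). Effects past the threshold at week 28 and not at week 5 are therefore not shown to differ between the ages, apart from Aqp4 and S1pr3. The S1pr3 call was lost in 19 of 33 alternatives, and without the 3 libraries with both Xist and Ddx3y neither was called. Without Cck-/- week 28 replicate 1 the count was 6, and without transgenic week 28 replicate 3 it was 9. From week 5 to week 12, 0 members were called (0.667% of all genes; 2 members at an unadjusted p under 0.05). From week 12 to week 28, 0 members were called (0% of all genes; 7 members at an unadjusted p under 0.05), the smallest being Aqp4 at 0.85 (SE 0.19, adjusted p = 0.384).

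Within Cck-/- mice, libraries of successive ages were compared as well. From week 5 to week 12, 4 of 28 were called, 3 higher (5.29% of all genes) and 1 lower (6.53%). Fabp7 fell by 0.85 on the log2 scale (SE 0.15, adjusted p = 0.00216), from 176 to 193 FPKM down to 98.6 to 103 FPKM. Vim rose by 0.56 (SE 0.13, adjusted p = 0.0126), Gjb6 by 0.42 (SE 0.12, adjusted p = 0.0315) and Ntsr2 by 0.34 (SE 0.077, adjusted p = 0.00964). These differences and the week 5 transgene effects share the Cck-/- week 5 libraries, which bear on Fabp7, Gjb6 and Ntsr2 in both. Between the same ages, oligodendrocyte markers went from 8.99 ± 0.13 to 7.82 ± 0.11 (mean log2 level, SD, n = 3). Blood markers went from 6.11 ± 0.39 to 4.83 ± 0.90, and Purkinje markers rose from 8.38 ± 0.029 to 8.53 ± 0.074. The part of these cells in the age differences was not tested. From week 12 to week 28, 1 of 28 was called higher (4.03% of all genes) and 1 lower (5.62%). C4b rose by 0.98 (SE 0.23, adjusted p = 0.0186), from 2.33 to 3.23 FPKM up to 4.28 to 8.64 FPKM, and Fabp7 fell by 0.55 (SE 0.15, adjusted p = 0.0349). Neither was called without Cck-/- week 12 replicate 2 or 3 or week 28 replicate 2.

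In ATXN1[30Q]D776/Cck-/- mice the later interval held more calls. From week 5 to week 12, 0 members were called higher (0.593% of all genes) and 1 was called lower (0.601%): Fabp7 fell by 0.82 (SE 0.15, adjusted p = 0.0168). From week 12 to week 28, 8 of 28 were called higher (10.2% of all genes) and 3 lower (13.7%). C4b rose most, by 1.47 (SE 0.23, adjusted p = 0.000890), from 3.08 to 5.92 FPKM up to 12.1 to 20.3 FPKM. Gfap rose by 0.99 (adjusted p = 0.0258), Aqp4 by 0.68 (adjusted p = 0.00275) and Cd44 by 0.67 (adjusted p = 0.0178). The other four were Gja1 (0.45), Clu (0.41), Slc1a2 (0.33) and Slc4a4 (0.26). Gdf10 fell by 0.90 (adjusted p = 0.00321), Fabp7 by 0.63 (adjusted p = 0.00898) and Slc1a3 by 0.57 (adjusted p = 0.00506). Fabp7 was thus called lower in both intervals in both genotypes. The later interval shares the transgenic week 28 libraries with the week 28 transgene effect. Slc1a3, Fabp7, Aqp4, Gja1, Gdf10, Clu, Gfap, C4b and Cd44, called in the same direction in both, are therefore not separate results. Over this interval Purkinje markers went from 7.97 ± 0.13 to 6.99 ± 0.52 and microglial markers from 3.43 ± 0.27 to 4.07 ± 0.27 (mean log2 level). Their part was not tested. Without the 3 libraries with both Xist and Ddx3y, 2 members were called from week 12 to week 28. With the meningeal level as a covariate, Gfap (adjusted p = 0.113), Cd44 (0.0847), Clu (0.102) and Slc1a2 (0.0966) lost their calls. The count was 6 without transgenic week 28 replicate 1 or 2, and 7 without week 12 replicate 2 or 3. Calls in 1 genotype and not in the other are not a tested difference, as the interaction above gives.

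Other genes of the same cells and pathways came from lists of related genes, also chosen with earlier results of these data known. Of 50 other astrocyte and Bergmann glia genes, all tested, 5 were called higher and 12 lower at week 28, against 4.54% and 6.13% of all genes tested. By smallest p these were Kcnj10, the potassium channel of astrocytes (-0.51, adjusted p = 0.00221), the septin Sept4 (-0.62, adjusted p = 0.00256), the glutamine transporter Slc38a3 (0.51, adjusted p = 0.00477), the R-spondin receptor Lgr6 (-0.76, adjusted p = 0.00797), the endothelin receptor Ednrb (0.65, adjusted p = 0.00932) and the amino acid transporter Slc7a10 (-0.32, adjusted p = 0.00956). As among the members, both directions occurred, and Kcnj10 fell from 74.8 ± 2.52 to 52.7 ± 7.28 FPKM while Aqp4, which sits with it in endfeet, rose. At week 5, 2 of the 50 were called higher and 2 lower, near the 3.30% and 4.37% of all genes, and at week 12 Slc38a3 alone was called (0.45, adjusted p = 0.0406).

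Of 34 other reactive astrocyte genes, 27 were tested, and 3 were called in each direction at week 28, against 4.54% higher and 6.13% lower over all genes. The complement component C3 (0.82, adjusted p = 0.00575), the asparaginase Aspg (0.42, adjusted p = 0.0409) and the lipopolysaccharide co-receptor Cd14 (0.35, adjusted p = 0.0451) were higher. The glycosyltransferase B3gnt5 (-1.09, adjusted p = 2.06e-05), the calcium-binding S100a6 (-0.41, adjusted p = 0.0104) and the class I histocompatibility gene H2-D1 (-0.37, adjusted p = 0.0322) were lower. C3 averaged 0.672 ± 0.443 FPKM in Cck-/- and 1.92 ± 0.569 FPKM in transgenic libraries. It was thus near the filter, which it may have passed through libraries where it was high. C3 and Cd14 are also made by microglia, whose markers moved at this age. B3gnt5 was lower at week 5 (-0.40, adjusted p = 0.0434) and week 12 (-0.58, adjusted p = 0.0187) too, and at week 5 the list held 3 lower and 0 higher calls, against 4.37% and 3.30% of all genes. Of 20 genes of gp130 and STAT3 signalling, 15 were tested and 3 were called at week 28, all higher, against 4.54% of all genes. Cntfr, the receptor for ciliary neurotrophic factor, rose from 50.1 ± 1.65 to 68.3 ± 5.29 FPKM (0.44, adjusted p = 0.000268), its ligand Cntf from 1.51 ± 0.214 to 2.25 ± 0.205 FPKM (0.38, adjusted p = 0.0119) and the feedback inhibitor Socs3 from 0.730 ± 0.184 to 1.38 ± 0.190 FPKM (0.46, adjusted p = 0.00503). Socs3 averaged 0.523 to 0.891 FPKM in the groups other than transgenic week 28. It therefore passed the filter of 1 FPKM mainly through the group where it was high, and its call carries little weight in that count. Stat3 itself had 0.11 (adjusted p = 0.222), and the gp130 receptor Il6st had 0.093 (adjusted p = 0.615). Cntfr was also called at week 5 (0.25, adjusted p = 0.0211) and week 12 (0.32, adjusted p = 0.0158).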

How the data were processed

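Cerebellar RNA was sequenced after TruSeq library preparation, per the labels' protocols. The authors deposited a table of FPKM values from Cuffnorm, per the file's name and header, with TopHat2 2.0.11, Cufflinks 2.2.1 and mm10 named in the submitters' processing notes. Strand, read depth and counts were not given in the sources used here, so no count test was run. FPKM values were used as log2(FPKM + 1). Genes with at least 1 FPKM in at least 3 of 18 libraries were tested (13487 of 22783) with limma 3.58.1 in R 4.3.3, with 1 mean for each of 6 groups, a mean-variance trend, 12 residual degrees of freedom, two-sided tests and Benjamini-Hochberg adjustment within each of 10 comparisons. The fit was tested on simulated data. Members and related lists were chosen with earlier results of these data known. Values by library are printed for members called in a transgene effect or interaction and for the most abundant. Of related lists with 10 or fewer calls at week 28 all called genes are named, otherwise the 6 with the smallest p. Promoter windows and sequences are from RefSeq (GRCm38.p6). Alternatives were other pseudocounts, filters, scalings, variance models, covariates, a replicate block and leaving out libraries. Removing 3 libraries low in choroid plexus genes, removing 3 with both Xist and Ddx3y, and a Xist covariate were chosen after seeing the data.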

Additional observations from a re-analysis of the deposited data

Results flagged for a closer look

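The transgene effect was called different between weeks 5 and 28 for 2 of 28 members, by limma's interaction test, where 3.65% of all genes were called. For Aqp4 the log2 effect was larger at week 28 than at week 5 by 1.02 (SE 0.19, adjusted p = 0.0127), with all 3 transgenic week 28 libraries above all Cck-/- ones and overlapping groups at week 5. For S1pr3 it was larger by 0.49 (SE 0.12, adjusted p = 0.0430), at levels of 0.876 to 1.82 FPKM. The S1pr3 call was lost in 19 of 33 alternatives. Without the 3 libraries with both Xist and Ddx3y neither member was called.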

How the results depend on the processing

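No called member reversed under any alternative. The share of all genes called was not computed under the alternatives, so the counts below describe the members alone. The number of called members moved by more than 1.5 times as follows. With library weights estimated from the data it was 13 at week 5, 1 at week 12 and 23 at week 28, 1, 11 and 15 in the interactions (week 12 minus 5, 28 minus 12 and 28 minus 5), 10 and 7 in the Cck-/- age effects and 18 in the transgenic week 12 to 28 effect. With only the compared groups fitted it was 1 at week 28, 1 in the week 28 minus 5 interaction, 0 in the Cck-/- week 12 to 28 effect and 3 in the transgenic one. With no filter on low values it was 3 at week 5 and 1 in Cck-/- from week 12 to 28, and with a mean FPKM of at least 5 it was 1 in the week 28 minus 5 interaction. With the meningeal covariate it was 1 and 6 in the week 12 minus 5 and 28 minus 5 interactions, 7 and 5 in the Cck-/- age effects and 4 in the transgenic week 5 to 12 effect. With the choroid plexus covariate it was 1, 1 and 0 in the week 28 minus 5 interaction, Cck-/- week 12 to 28 and transgenic week 5 to 12. Without the 3 libraries low in choroid plexus genes it was 0 at week 5, 3 in the week 28 minus 12 interaction and 0 in the transgenic week 5 to 12 effect. Without the 3 libraries with both Xist and Ddx3y it was 3 at week 5, 9 at week 28, 0 in the week 28 minus 5 interaction, and 0 and 2 in the transgenic age effects. With the Xist covariate the week 28 minus 5 interaction had 1. The cause of the other moves was not tested. Leaving out each library in turn gave 1 to 6 calls at week 5, 0 to 2 at week 12, 7 to 20 at week 28, 0 to 0, 0 to 4 and 1 to 9 in the 3 interactions, 2 to 5 and 0 to 2 in the Cck-/- age effects, and 0 to 2 and 6 to 14 in the transgenic ones. At week 28 the count was 7 without transgenic replicate 2 and 9 without replicate 1. Aqp4 alone stayed called at week 28 in all 34 alternatives. With the replicate block 15 members were called at week 28, and the deviations of same-numbered libraries correlated at -0.388 to 0.435, over 0.1 in 15 of 45 pairs. In no 2 groups compared directly did all 3 pairs exceed 0.1, while all 3 did between Cck-/- week 28 and transgenic week 12 (0.316, 0.224 and 0.135), so the numbers were not taken to pair the libraries. Read depth was not given, and values near 1 FPKM (S1pr3, Timp1) have unknown counting error.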
